A study of Rattus norvegicus with 21 samples.

Results

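Immediate early genes are the genes that a cell transcribes first after a stimulus, before any new protein has been made, and 10 of them were followed here in the rat bladder after spinal cord injury. The set held the AP-1 subunits Fos (ENSRNOG00000008015), Jun (ENSRNOG00000026293) and Junb (ENSRNOG00000042838), the zinc finger factors Egr1 (ENSRNOG00000019422), Egr2 (ENSRNOG00000000640) and Egr3 (ENSRNOG00000017828), the stress factor Atf3 (ENSRNOG00000003745), the nuclear receptor Nr4a1 (ENSRNOG00000007607), and the feedback genes Dusp1 (ENSRNOG00000003977) and Btg2 (ENSRNOG00000003300). They were named one by one out of the 32754 genes of the count table, and all 10 passed the filter on low counts, as did 15225 genes in all. The 10 genes were chosen from results of these same libraries, so their values are a description: they entered the fits over all genes, but their calls are given with the share of all genes called, and no p is printed for them. The gene table at hand did not pair these identifiers with symbols, so the symbols are those named in the choice and were not checked.

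Full-thickness urinary bladders came from male Sprague Dawley rats labelled WT and aged 6 to 7 weeks at the start. The SCI animals had a complete transection of the spinal cord at thoracic level 8 and were followed for 2, 8 or 16 weeks; the controls were uninjured, with no sham operation named, and were labelled 0, 2, 8 or 16 weeks. Each of the 7 groups had 3 libraries of ribosomal RNA-depleted total RNA, so 9 libraries were from SCI and 12 from control bladders, and the comparison of SCI with control at each week asks how the bladder transcriptome differs at the end of spinal shock, in the established phase and in the chronic phase. Nothing in the labels says that an RNA was pooled, and each library has its own code, but the labels do not state that each was a separate animal. The wall of the whole bladder was sequenced, so fewer cells of a type and less RNA per cell cannot be told apart.

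Most cells keep these genes near silent and switch them on within minutes of a growth factor, a calcium signal, stretch or injury, largely through the factors SRF and CREB already bound at their promoters. The messengers are short lived. Fos, Jun and Junb pair to form AP-1, the Egr proteins and Nr4a1 drive later genes, Atf3 is a bZIP factor of the ATF/CREB family induced by many stresses, and Dusp1 and Btg2 are induced with the others and damp the response, Dusp1 by dephosphorylating MAP kinases and Btg2 by slowing proliferation and promoting messenger decay.

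The promoters are shown because the set is usually described by the sites they share for CREB (the CRE) and SRF (the CArG box). RefSeq promoters of assembly GRCr8 were at hand for 6 of the 10 genes, and the 250 bases before each start site were searched on both strands. The stretches below run 5′ to 3′ in the direction of the gene, with the matches in capitals and 12 bases on either side where the window allowed.
Dusp1, chr10:17184669-17184748 (+ strand): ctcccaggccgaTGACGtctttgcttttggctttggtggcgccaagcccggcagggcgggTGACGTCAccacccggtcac
Btg2, chr13:48087872-48087903 (- strand): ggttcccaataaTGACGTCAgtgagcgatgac
Egr1, chr18:26736931-26737028 (+ strand): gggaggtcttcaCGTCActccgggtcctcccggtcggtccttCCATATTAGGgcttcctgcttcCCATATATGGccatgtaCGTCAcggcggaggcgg
Egr2, chr20:21054491-21054536 (- strand): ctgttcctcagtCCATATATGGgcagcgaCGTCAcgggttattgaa
Junb, chr19:40080959-40080987 (+ strand): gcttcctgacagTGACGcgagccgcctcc
Nr4a1, chr7:134259888-134260101 (+ strand): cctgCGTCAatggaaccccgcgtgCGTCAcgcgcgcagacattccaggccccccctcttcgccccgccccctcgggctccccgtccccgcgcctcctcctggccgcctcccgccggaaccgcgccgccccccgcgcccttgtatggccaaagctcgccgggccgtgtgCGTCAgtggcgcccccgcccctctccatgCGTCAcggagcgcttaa
The 8-base full CRE, TGACGTCA, was in the windows of Dusp1 and Btg2, and in 1.59% of all 33469 RefSeq promoters. It overlaps the short CRE, TGACG, which reads CGTCA where it lies on the opposite strand and which was in all 6 windows and in 18.2% of all promoters. Counting both strands, and those inside a full CRE, Nr4a1 held 4 copies of it, Dusp1 held 3, Egr1 and Btg2 held 2 each, and Junb and Egr2 held 1 each. The CArG box was in the windows of Egr1, which held 2 copies, and Egr2, against 1.5% of all promoters. The closer Egr1 copy and the Egr2 copy had the same 10 bases and began the same 83 bases before the start. The AP-1 site TGACTCA was in 0 of the 6 windows and in 4.05% of all promoters. A match in letters is not a binding site, and these libraries measured no binding.

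The libraries held between 8087726 and 15472537 counted reads, with a median of 9584812. Libraries of 1 group differed by far more than counting noise (chi-square per degree of freedom 7.22 to 59.9 over pairs), so none was a copy of another. Levels are given as CPM, the reads of a gene relative to the size of its library, scaled by the TMM method, whose factors ran from 0.903 to 1.09. Since no gene lengths of the files' build were used, a level is compared only between libraries of the same gene. Individual libraries stood out for the whole set: replicate 1 of the 8-week controls was the highest of its group in all 10 genes and the highest of all 21 libraries in 5 (Jun, Atf3, Nr4a1, Dusp1 and Btg2). Replicate 2 of the 8-week SCI group was also the highest of its group in all 10 genes, and the highest of all in Egr1 and Egr3. The first of these held 9157219 reads, with 11.0% of them in its 10 most abundant genes against a range of 6.31% to 14.3% over the libraries, and a TMM factor of 0.925. The part of these library differences in the results was not tested beyond leaving libraries out, and values that they move most are also given without them.

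**Figure D1:**
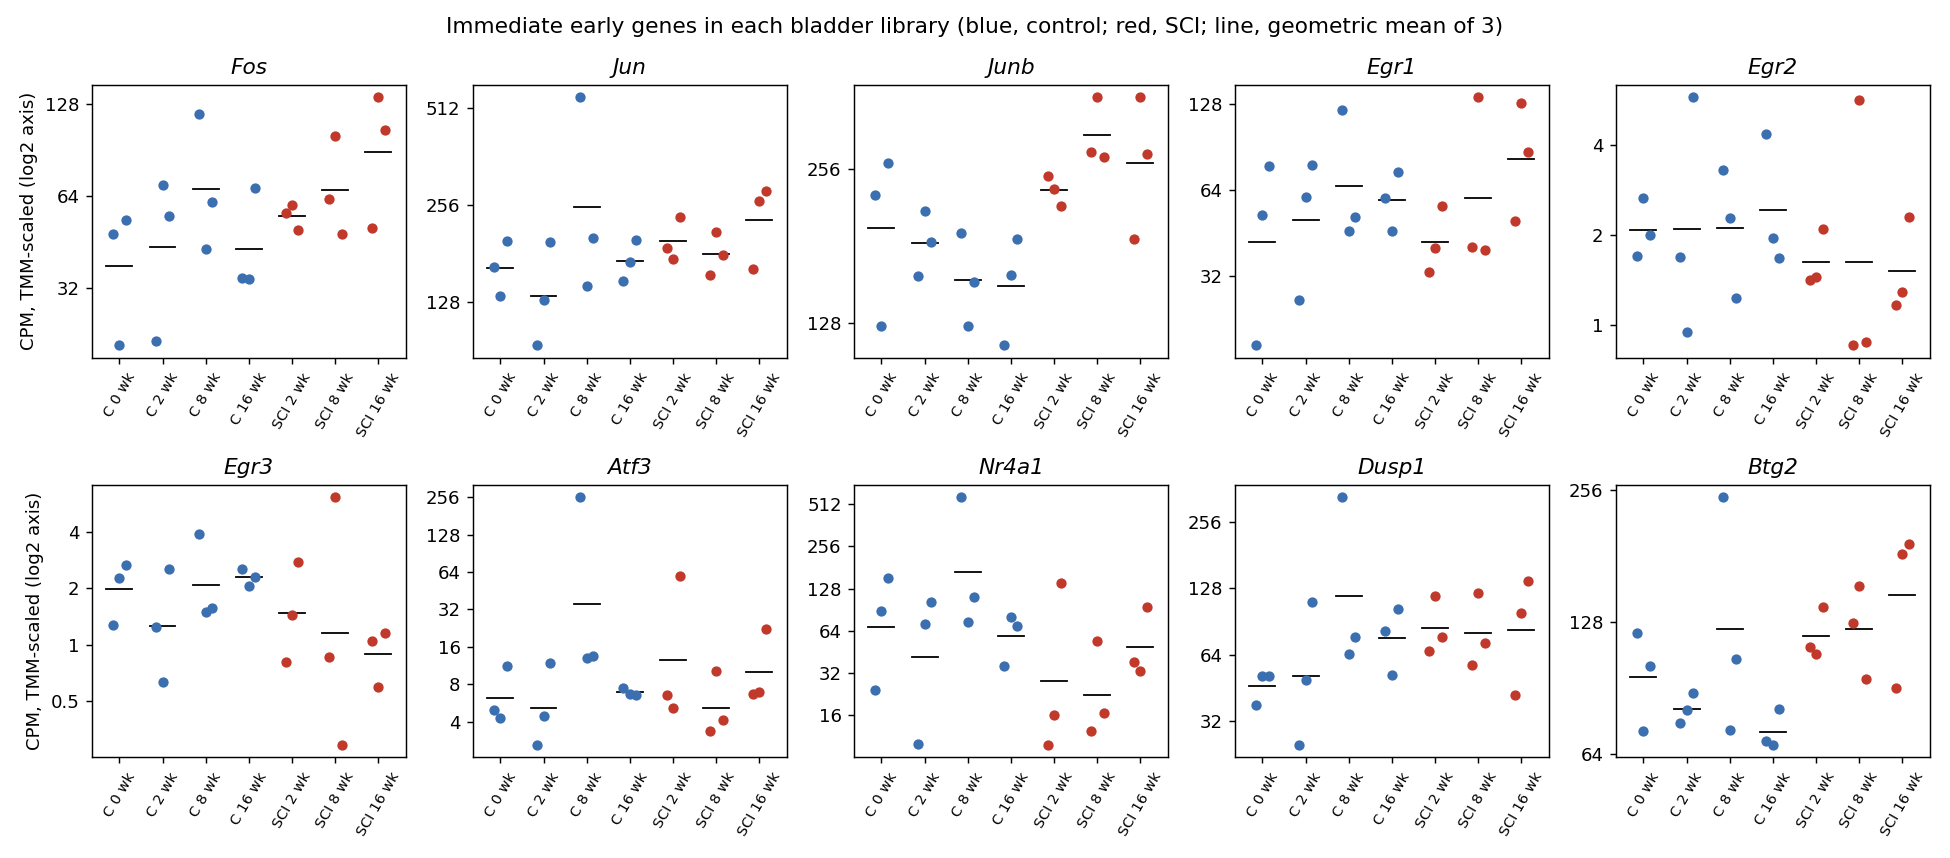
Level of each gene in every library, as TMM-scaled CPM on a log2 axis that differs between panels; blue points are control and red points SCI libraries, 3 a group, and the line is their geometric mean. In the Atf3, Nr4a1, Jun, Dusp1 and Btg2 panels a single 8-week control library lies above all others, at 257 CPM for Atf3.

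Atf3 varied more than any other member by its ratio of highest to lowest library, which was 99.3 over the 21 libraries. It stood at 4.93, 4.27 and 11.2 CPM in the 0-week controls and at 2.59, 4.42 and 11.9 CPM in the 2-week controls. In the 8-week controls it reached 257 CPM in replicate 1, against 13.1 and 13.4 CPM in the others, a mean of 94.4 ± 141 (SD, n = 3). The 16-week controls were close together, at 7.42, 6.68 and 6.51 CPM. Even without replicate 1, the 8-week controls lay above every control library of the other weeks, though by little: the next was at 11.9 CPM. In SCI bladders Atf3 was at 6.49, 5.18 and 59.0 CPM at 2 weeks, at 3.35, 10.2 and 4.11 CPM at 8 weeks, and at 6.68, 6.97 and 22.2 CPM at 16 weeks. One SCI library thus stood high at 2 weeks and one, less so, at 16 weeks, whereas at 8 weeks all 3 SCI libraries lay below all 3 controls.

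The fitted difference in Atf3 between SCI and control followed those single libraries. On the log2 scale it was 1.92 (SE 1.09) at 2 weeks and -0.08 without SCI replicate 3. At 8 weeks it was -4.03 (SE 1.12), and -1.19 without control replicate 1. At 16 weeks it was 0.78 (SE 1.10), and -0.02 without SCI replicate 3. Of the 3 differences the one at 8 weeks kept its sign in each of the 6 fits without 1 of the libraries compared, while its size depended on 1 control library. In order of group means of log2 CPM, Atf3 ran from the 2-week controls, the lowest, through 8-week SCI, 0-week control, 16-week control, 16-week SCI and 2-week SCI to the 8-week controls. Of the 6 steps in this order only the last exceeded the pooled SD within groups, and the ranges overlapped at every step. That last step rests on replicate 1 of the 8-week controls, at 8.01 log2 CPM. The other 8-week controls were at 3.73 and 3.76, beside a 2-week SCI mean of 3.69. The order was not computed without that library.

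Nr4a1, an orphan nuclear receptor of the NR4A family, came next to Atf3 over the 21 libraries, with a ratio of 58.3 between its highest and lowest library. Both genes were highest in replicate 1 of the 8-week controls, and their next libraries were at 59.0 CPM for Atf3 and 152 CPM for Nr4a1. The ratios were not computed without that replicate, so their rank may rest on it. The controls were at 24.1, 88.3 and 152 CPM at 0 weeks, at 9.99, 71.9 and 103 CPM at 2 weeks, at 573, 73.8 and 112 CPM at 8 weeks, and at 36.2, 80.1 and 69.7 CPM at 16 weeks. SCI bladders had 9.83, 16.2 and 141 CPM at 2 weeks, 12.4, 54.6 and 16.7 CPM at 8 weeks, and 38.1, 32.9 and 93.9 CPM at 16 weeks. At 8 weeks every SCI library lay below every control, and at 2 and 16 weeks the groups overlapped. The library with 573 CPM is again replicate 1 of the 8-week controls, and the 2-week SCI library with 141 CPM is the one that was high in Atf3. The log2 difference between SCI and control was -0.15 (SE 0.98) at 2 weeks, -3.19 (SE 1.06) at 8 weeks and -0.17 (SE 0.98) at 16 weeks. At 8 weeks it shrank to -1.75 without control replicate 1. At 2 weeks it became -2.24 without SCI replicate 3 and 0.43 without control replicate 3, and at 16 weeks it ran from -0.80 to 0.09 as single libraries were left out, so neither week gave a settled direction.

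Junb, the AP-1 subunit that often restrains Jun, was the one member for which SCI and control separated at every week. The share of all genes that did so at every week was not counted, and the shares for single weeks are given below. Junb was also the most even member over the 21 libraries, with a ratio of 3.06 between its highest and lowest library. That rank was not computed without replicate 1 of the 8-week controls, the highest library for Jun and Btg2. Control libraries had 227, 126 and 263 CPM at 0 weeks, 158, 212 and 184 CPM at 2 weeks, 192, 126 and 154 CPM at 8 weeks, and 116, 159 and 187 CPM at 16 weeks. SCI libraries had 248, 234 and 216 CPM at 2 weeks, 276, 354 and 270 CPM at 8 weeks, and 187, 354 and 274 CPM at 16 weeks. Every SCI library was above every control of its week, at 2 weeks by a margin of only 216 against 212 CPM, and at 16 weeks by less than 1 CPM. The 0-week controls, however, reached into the SCI range. The log2 difference was 0.33 (SE 0.25) at 2 weeks, 0.93 (SE 0.25) at 8 weeks and 0.82 (SE 0.25) at 16 weeks, and at each week it stayed above 0 in the 6 fits without 1 of the libraries compared. Unlike Atf3, Junb did not rest on replicate 1 of the 8-week controls, since the 8-week value without it was 1.10.

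Fos, the partner of the Jun proteins in AP-1, was highest in the 16-week SCI group. Control bladders had 48.1, 20.7 and 53.4 CPM at 0 weeks, 21.4, 69.4 and 55.0 CPM at 2 weeks, 119, 42.8 and 61.0 CPM at 8 weeks, and 34.3, 34.1 and 67.8 CPM at 16 weeks. SCI bladders had 56.5, 59.6 and 49.4 CPM at 2 weeks, 62.7, 100 and 47.8 CPM at 8 weeks, and 50.1, 135 and 105 CPM at 16 weeks. At 16 weeks SCI and control overlapped in 1 library of each. The log2 difference was 0.18 (SE 0.47) at 2 weeks, -0.08 (SE 0.47) at 8 weeks and 1.10 (SE 0.47) at 16 weeks. The value at 16 weeks was at least 0.78 whichever library was left out. At 2 weeks it was -0.18 without control replicate 1, and at 8 weeks it was 0.44 without control replicate 1 and 0.09 with scaling by library size only.

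Jun, the prototype AP-1 subunit, had its highest library in the 8-week controls. Control values were 164, 134 and 199 CPM at 0 weeks, 94.1, 130 and 197 CPM at 2 weeks, 553, 144 and 203 CPM at 8 weeks, and 149, 171 and 199 CPM at 16 weeks. SCI values were 188, 174 and 235 CPM at 2 weeks, 155, 211 and 179 CPM at 8 weeks, and 163, 264 and 284 CPM at 16 weeks. SCI and control overlapped at each week, and the library at 553 CPM was replicate 1. The log2 difference was 0.51 (SE 0.37) at 2 weeks, -0.72 (SE 0.37) at 8 weeks and 0.45 (SE 0.37) at 16 weeks. Without control replicate 1 the 8-week value was 0.07. At 2 weeks it was 0.28 without control replicate 1 and 0.83 without control replicate 3, and at 16 weeks it ran from 0.30 to 0.66 as single libraries were left out.

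Egr1, the best known of the Egr zinc finger factors, overlapped between SCI and control at every week. Its controls were at 18.2, 52.4 and 78.0 CPM at 0 weeks, 26.3, 60.6 and 78.3 CPM at 2 weeks, 122, 45.9 and 51.3 CPM at 8 weeks, and 59.9, 45.7 and 74.2 CPM at 16 weeks. Its SCI libraries were at 32.8, 40.1 and 56.1 CPM at 2 weeks, 40.2, 135 and 39.5 CPM at 8 weeks, and 49.7, 129 and 87.1 CPM at 16 weeks. At 8 weeks both groups held 1 library above 100 CPM, replicate 1 of the controls and replicate 2 of SCI, and the others were at 51.3 CPM or lower. The log2 difference was -0.36 (SE 0.56) at 2 weeks, -0.03 (SE 0.55) at 8 weeks, with 0.12 under scaling by library size only, and 0.57 (SE 0.55) at 16 weeks. The 8-week value was -0.87 without SCI replicate 2 and 0.56 without control replicate 1. At 2 weeks it ran from -0.69 to -0.02 as single libraries were left out, and at 16 weeks from 0.19 to 0.85.

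Egr2 and Egr3, relatives of Egr1 best studied in Schwann cells and in muscle spindles and lymphocytes, were near the limit of detection. Egr2 had 9 to 66 reads a library and Egr3 had 3 to 56, so counting error adds to their spread. Egr2 ran from 0.858 CPM in an 8-week SCI library to 5.78 CPM in a 2-week control, and its groups overlapped at every week. Egr3 ran from 0.293 to 6.11 CPM, both in the 8-week SCI group. At 16 weeks the Egr3 controls were at 2.52, 2.05 and 2.31 CPM and the SCI libraries at 1.05, 0.597 and 1.16 CPM, with no overlap, on 20 to 38 reads against 6 to 10. The log2 difference at 16 weeks was -1.31 (SE 0.80) for Egr3 and -0.79 (SE 0.71) for Egr2, and both stayed below 0 in each of the 6 fits without 1 of the libraries compared. Without control replicate 1, the library with 66 reads, Egr2 was at only -0.20. At 2 weeks the values were 0.21 (SE 0.77) for Egr3 and -0.73 (SE 0.70) for Egr2, and at 8 weeks 0.02 (SE 0.72) and 0.08 (SE 0.70). At 2 weeks single libraries turned both directions: Egr2 was at 0.33 without control replicate 3 and Egr3 at -0.35 without SCI replicate 3. At 8 weeks they were -1.95 for Egr3 and -1.37 for Egr2 without SCI replicate 2, the library in which both genes were high.

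Dusp1, the phosphatase that switches off MAP kinases, overlapped between SCI and control at every week. The controls were at 37.8, 51.1 and 50.9 CPM at 0 weeks, 24.8, 49.1 and 111 CPM at 2 weeks, 333, 64.1 and 76.7 CPM at 8 weeks, and 81.9, 51.5 and 103 CPM at 16 weeks. SCI libraries were at 66.3, 119 and 76.5 CPM at 2 weeks, 57.6, 122 and 72.3 CPM at 8 weeks, and 41.7, 98.8 and 138 CPM at 16 weeks. The library at 333 CPM was replicate 1 of the 8-week controls, and the other controls of that week lay within the SCI range. The log2 difference was 0.51 (SE 0.59) at 2 weeks, -0.91 (SE 0.58) at 8 weeks and 0.24 (SE 0.58) at 16 weeks. Without that control the 8-week value was 0.26. At 2 weeks it ran from 0.13 to 1.24 as single libraries were left out, and at 16 weeks it was -0.16 without SCI replicate 3.

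Btg2, the antiproliferative member, was higher in SCI than in control libraries with no overlap at 2 and 16 weeks. Controls had 121, 72.2 and 102 CPM at 0 weeks, 75.4, 80.7 and 88.0 CPM at 2 weeks, 247, 72.4 and 105 CPM at 8 weeks, and 68.4, 67.1 and 81.0 CPM at 16 weeks. SCI libraries had 112, 108 and 139 CPM at 2 weeks, 127, 154 and 95.1 CPM at 8 weeks, and 90.4, 183 and 192 CPM at 16 weeks. At 8 weeks the control group spanned the whole SCI range. The log2 difference was 0.56 (SE 0.34) at 2 weeks, -0.17 (SE 0.34) at 8 weeks and 1.11 (SE 0.35) at 16 weeks. At 2 and 16 weeks it kept its sign in the 6 fits without 1 of the libraries compared, while at 8 weeks it was 0.50 without control replicate 1 and 0.005 with scaling by library size only.

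**Figure D2:**
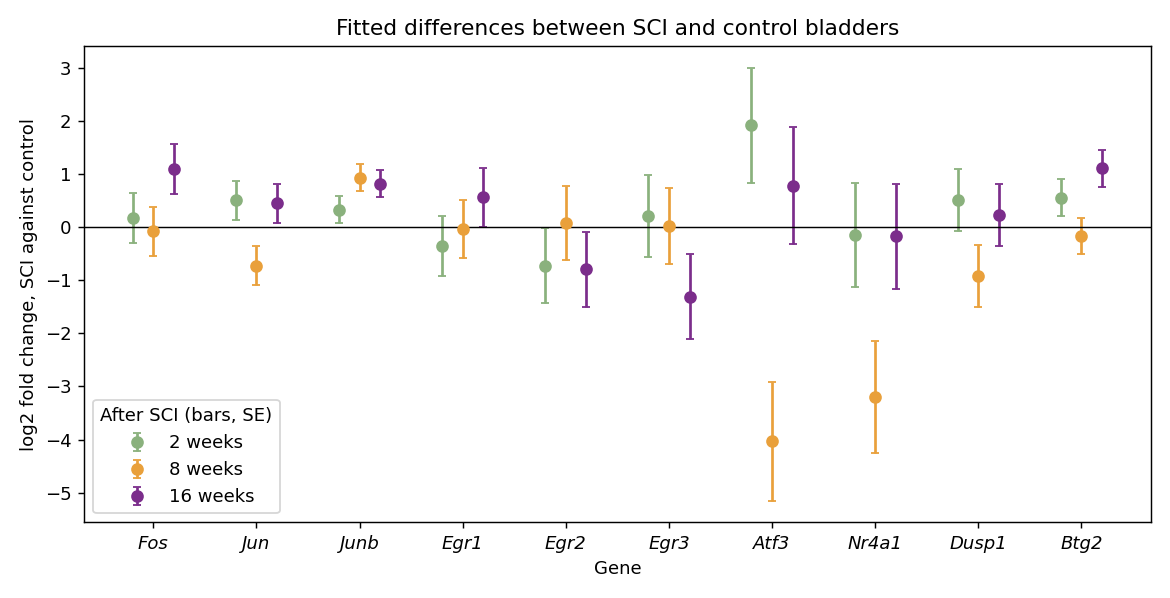
Fitted log2 fold change of SCI against control for each gene at 2, 8 and 16 weeks, with bars of 1 SE from the edgeR fit. Atf3 and Nr4a1 lie far below 0 at 8 weeks, at -4.03 and -3.19, with the widest bars, and Junb lies above 0 at all 3 weeks.

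Read as a set, the genes showed no single direction after SCI. At 2 weeks the median log2 difference of the 10 genes was 0.27, against 0.0017 for all tested genes, with 7 above 0 and 3 below. At 8 weeks it was -0.13, against 0.0032, with 3 above and 7 below. At 16 weeks it was 0.51, against -0.017, with 7 above and 3 below. Single libraries moved the set at each week. Without SCI replicate 3 the median was 0.086 at 2 weeks and 0.14 at 16 weeks, with 5 genes above 0 and 5 below in both. The set at 8 weeks turned with 1 library, since its median was 0.45 without control replicate 1 and -1.08 without SCI replicate 2, the libraries in which all 10 genes were the highest of their group. With scaling by library size only it was 0.049, but that scaling moved the median of all genes to 0.19.

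The same fit was read for all genes, so that the members' counts could be set beside the background. At 2 weeks edgeR's quasi-likelihood test at an adjusted p under 0.05 called 0 of the 10 members and 0.00% of all tested genes. At an unadjusted p under 0.05 it called 0 members and 6.67% of genes, and DESeq2 at an adjusted p under 0.05 called 0 members and 0.420%. At 8 weeks edgeR called 2 members, Junb (higher) and Atf3 (lower), and 8.41% of genes. The unadjusted rule called 3 members, with Nr4a1 added, and 28.0% of genes, and DESeq2 called 2, Junb and Nr4a1, and 12.9%. DESeq2 gave no adjusted p for Atf3. At 16 weeks edgeR called 0 members and 5.62% of genes, the unadjusted rule called Fos, Junb and Btg2 and 26.6%, and DESeq2 called Junb and Btg2 and 11.9%. Because the members were chosen with these values in view, nothing is read from their counts.

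The 8-week calls were lost in some fits with fewer libraries. When each of the 6 libraries compared was left out in turn, Junb was called in 1 fit, the one without control replicate 1, and Atf3 in 3. Calls over all genes went down too in 5 of these fits. Without control replicate 1, where Atf3 lost its call, 3.50% of genes were called, and without SCI replicate 1 or 3, where both genes lost it, 0.207% and 0.394%. Without control replicate 2 or 3, where Junb lost it, the shares were 2.80% and 4.37%. Leaving out SCI replicate 2 raised the share to 16.7%, with Atf3 still called, Nr4a1 added and Junb lost. The log2 difference of Junb stayed between 0.80 and 1.10 in these 6 fits. That of Atf3 was -3.74 without SCI replicate 1 and -3.84 without SCI replicate 3, close to the full value of -4.03, and only without control replicate 1 did it shrink to -1.19.

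Groups that do not overlap were common among all genes. At 2 weeks every SCI library was above every control for 2 members, Junb and Btg2, and for 7.21% of genes, and below for 0 members and 8.43%. At 8 weeks Junb was above, as were 13.9% of genes, and Atf3 and Nr4a1 were below, as were 14.7%. At 16 weeks Junb and Btg2 were above, as were 17.6%, and Egr3 was below, as were 18.3%.

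Whether the SCI difference itself changed between weeks was fitted as an interaction. The 3 contrasts share groups of libraries and so are not independent of each other. Between 8 and 2 weeks edgeR called 0 members and 0.0197% of genes at the adjusted threshold, 3 members (Jun, Atf3 and Nr4a1) and 8.59% at the unadjusted one, and DESeq2 called 0 members and 0.188%. Atf3 had the largest change of the set, -5.95 (SE 1.55) on the log2 scale, which was -3.11 without control replicate 1 of 8 weeks and -3.95 without SCI replicate 3 of 2 weeks. Between 16 and 2 weeks the members called were 0 by each of these rules, against 0.00%, 7.75% and 0.0394% of genes. Between 16 and 8 weeks edgeR called 0 members and 0.00% of genes, the unadjusted rule called 4 members (Jun, Atf3, Nr4a1 and Btg2) and 6.63%, and DESeq2 called 0 and 0.152%. There the log2 change was 4.81 (SE 1.56) for Atf3, 3.02 (SE 1.42) for Nr4a1, 1.18 (SE 0.52) for Jun and 1.28 (SE 0.48) for Btg2. All 4 of these genes had their highest library in replicate 1 of the 8-week controls, and without it the changes were 1.98 for Atf3, 1.59 for Nr4a1, 0.39 for Jun and 0.61 for Btg2.

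Control bladders were also compared over time. From 0 to 2 weeks the median log2 change of the members was -0.13, and edgeR called 0 members and 0.00% of genes at the adjusted threshold, 0 and 13.4% at the unadjusted one, and DESeq2 0 and 0.308%. From 2 to 8 weeks the median was 0.74, with 8 members above 0. Atf3 changed by 3.93 (SE 1.10), Nr4a1 by 2.04 (SE 1.00), Dusp1 by 1.36 (SE 0.59), Jun by 1.09 (SE 0.37) and Btg2 by 0.80 (SE 0.34) on the log2 scale. For this step edgeR called 0 members and 0.00% of genes, the unadjusted rule 4 members (Jun, Atf3, Dusp1 and Btg2) and 18.9%, and DESeq2 0 and 2.19%. From 8 to 16 weeks the median was -0.75, with 9 members below 0, Atf3 at -3.77 (SE 1.09) and Nr4a1 at -2.03 (SE 1.00). Here edgeR called 0 members and 0.0788% of genes, the unadjusted rule 3 members (Jun, Atf3 and Btg2) and 9.50%, and DESeq2 0 and 0.703%. Both steps run through the 8-week controls, and for Jun, Atf3, Nr4a1, Dusp1 and Btg2 the peak is that group's replicate 1. Without it the median change of the members was 0.10 from 2 to 8 weeks and 0.069 from 8 to 16 weeks. Atf3 then stood at 1.09 and -0.93 in these steps, and Nr4a1 at 0.59 and -0.59, while from 2 to 8 weeks Dusp1 was at 0.19, Jun at 0.30 and Btg2 at 0.12.

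SCI bladders were compared over time in the same way. From 2 to 8 weeks the median log2 change was 0.21, or -0.34 without SCI replicate 2 of 8 weeks, and Atf3 had the lowest value, -2.02 (SE 1.10), or -0.02 without SCI replicate 3 of 2 weeks. Here edgeR called 0 members and 0.0131% of genes, the unadjusted rule 0 and 4.49%, and DESeq2 0 and 0.145%. From 8 to 16 weeks the median was 0.31, or 0.72 without SCI replicate 2 of 8 weeks, and Egr3 was lowest at -1.33 (SE 0.81), which was 0.64 without SCI replicate 2 of 8 weeks, with 0 members called by each rule, against 0.00% of genes by edgeR, 1.81% by the unadjusted rule and 0.00657% by DESeq2.

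The set varied widely between libraries of a group. The pooled SD of log2 CPM within groups was 1.41 for Nr4a1, 1.36 for Atf3, 0.92 for Egr3, 0.83 for Egr2, 0.80 for Dusp1, 0.78 for Egr1, 0.66 for Fos, 0.50 for Jun, 0.47 for Btg2 and 0.35 for Junb. The median of the 13453 tested genes with an average log2 CPM of 1 or more was 0.20. Of these genes 99.9% had a smaller SD than Atf3 or Nr4a1, and 82.2% had a smaller one than Junb, the steadiest of the set over all 21 libraries. The 8-week controls, with replicate 1 high, had the largest SD of the 7 groups for Atf3, Dusp1, Jun and Btg2, but not for the other members. It was 2.46, 1.30, 1.01 and 0.90 there, and at most 1.91, 1.08, 0.54 and 0.61 in the other groups. No pooled SD was computed without that library, so the order of Junb, Btg2 and Jun may rest on it. The share of variance between groups was 59.8% for Junb, 44.8% for Btg2 and 39.8% for Atf3 and went down to 8.95% for Egr2, beside a median of 46.7% over those genes. Thus, over all 21 libraries, only Junb had more of its variance between groups than the median gene. The shares were also not computed without that high control library, so the place of Btg2 just below the median may rest on it. In the order of the group means, the 6 steps between neighbours were within the pooled SD for every gene but Atf3, and no step was free of overlap. The exception in Atf3 is the step to the 8-week controls, which rests on their replicate 1.

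**Figure D3:**
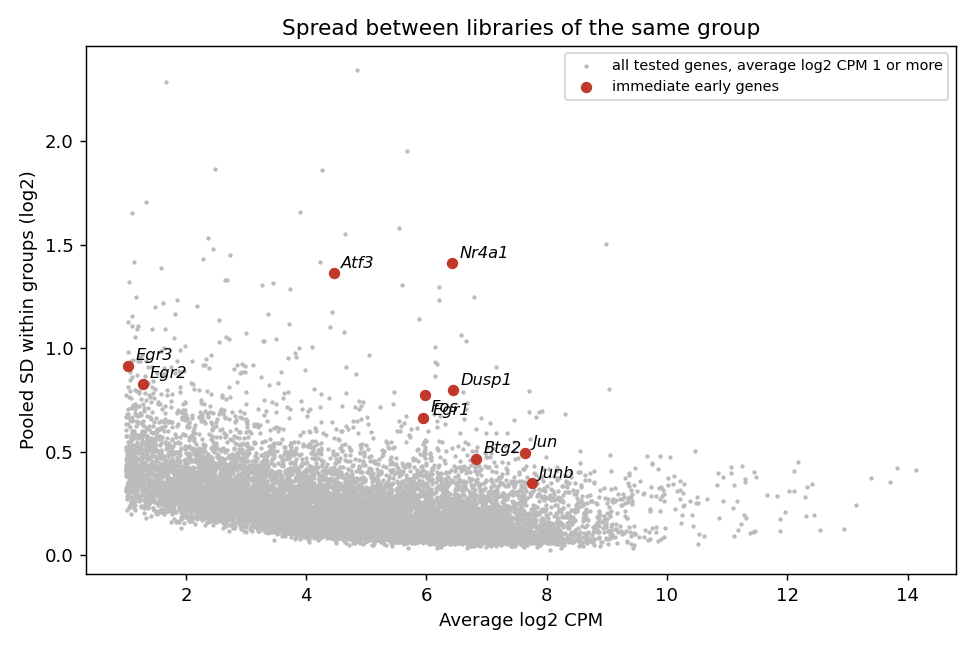
Pooled SD of log2 CPM within groups against the average log2 CPM, for 13453 tested genes in grey and the 10 immediate early genes in red. All 10 lie above the median SD of 0.20, and Nr4a1 and Atf3 reach 1.41 and 1.36.

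The members varied together from library to library. Over the 45 pairs, Pearson's r of log2 CPM across the 21 libraries had a median of 0.48 and ran from -0.22 to 0.85. Taken as deviations from group means, so that group differences do not enter, the median was 0.62, and 28 of the 45 pairs were above 0.5. Over all pairs of the 13453 genes taken the same way the median was near 0, and 7.9% of pairs were above 0.5. The closest pairs were Fos with Junb at 0.88, Jun with Btg2 at 0.87, and Jun with Dusp1, Jun with Atf3 and Atf3 with Nr4a1, all at 0.85. Egr2 and Egr3 went together at 0.83 but hardly with Junb, at -0.02 and 0.11. Without replicate 1 of the 8-week controls the median of the deviations was 0.54 over 20 libraries, Fos with Junb stayed at 0.88 and Atf3 with Nr4a1 at 0.85, while Jun with Btg2 was at 0.73, Jun with Dusp1 at 0.75 and Jun with Atf3 at 0.70, and Atf3 with Btg2 went from 0.73 to 0.48. All pairs share the libraries and their depth, and no p is given.

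**Figure D4:**
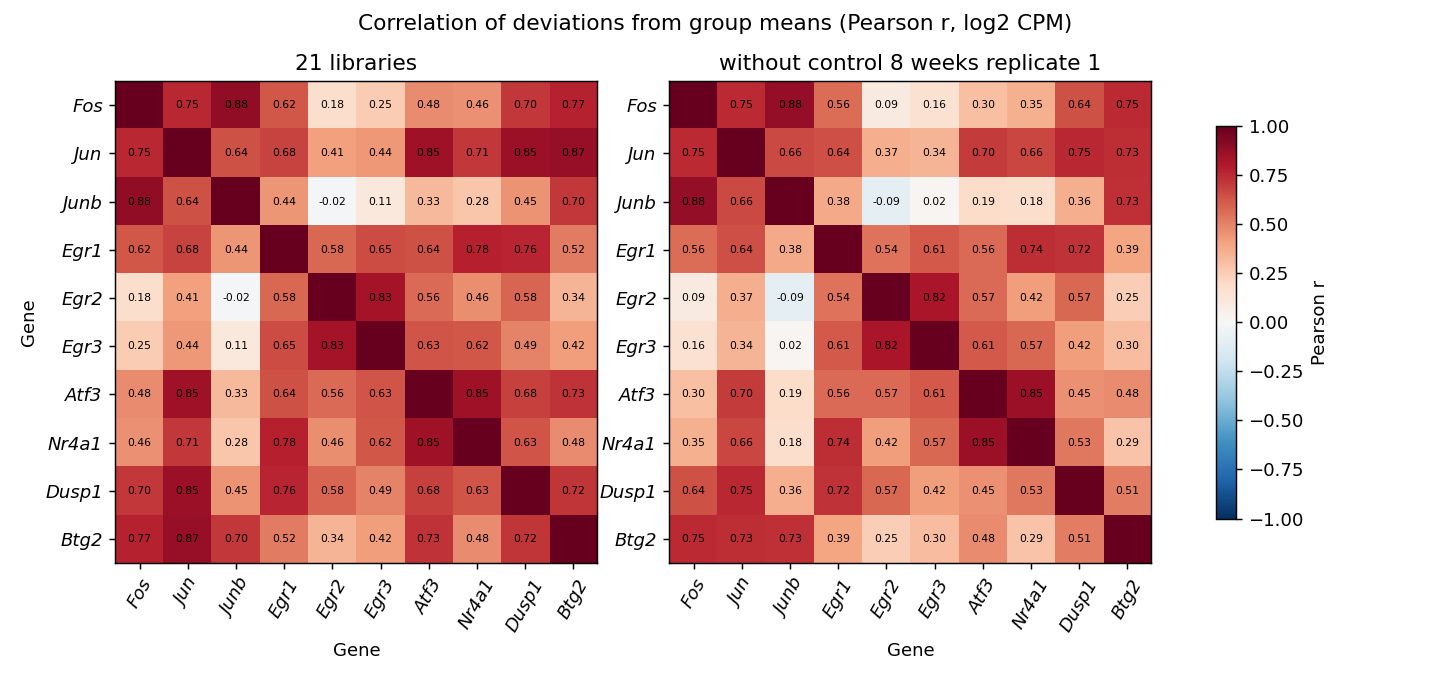
Pearson's r between genes of deviations of log2 CPM from the group means, over 21 libraries (left) and without replicate 1 of the 8-week controls (right); red is positive and blue negative. The median over 45 pairs is 0.62 on the left and 0.54 on the right.

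In the map of deviations from each gene's mean, libraries rather than groups formed the bands. Replicate 1 of the 8-week controls had a median deviation of 1.22 on the log2 scale over the 10 genes, followed by replicate 2 of 8-week SCI at 0.76 and replicate 3 of 16-week SCI at 0.75. Replicate 1 of the 2-week controls was the lowest, at -1.03, and was the lowest of its group in 8 genes. Replicate 3 of 2-week SCI was the highest of its group in 7 genes, Atf3 and Nr4a1 among them. High libraries thus occurred in both arms.

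**Figure D5:**
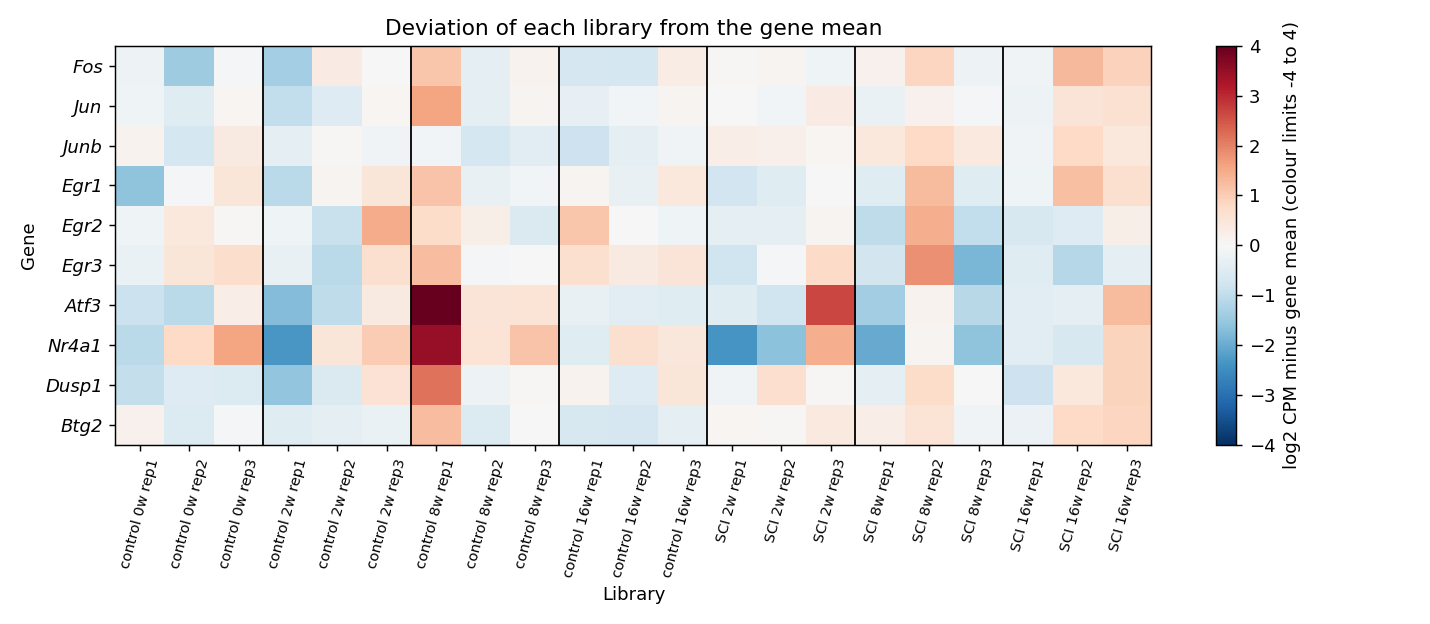
Log2 CPM of each gene in each library minus the mean of that gene over the 21 libraries; columns are libraries, black lines part the groups, and the colour scale stops at -4 and 4. The column of replicate 1 of the 8-week controls is the darkest, with a median deviation of 1.22.

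Outside the set, the genes most like Atf3 over the 21 libraries among those with an average log2 CPM of at least 1 were ENSRNOG00000004100, with r = 0.91 and Spearman's rho = 0.78, and ENSRNOG00000001979, with r = 0.89 and rho = 0.82. Both were highest in replicate 1 of the 8-week controls, at 74.3 and 176 CPM against medians of 24.0 and 38.6 CPM. Without that library and replicate 3 of 2-week SCI, the 2 farthest from the Atf3 median, r over the other 19 was 0.68 and 0.72, so part of the likeness rests on those libraries. They were picked for their r, which is therefore a description.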

How the data were processed

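The authors deposited 1 table of raw counts of reads per Ensembl gene, in which the counts of 2 flow cells had been combined, for 21 rat bladder libraries made with a stranded, ribosomal RNA-depleting kit. The submitters' processing notes name Rnor_6.0, STAR 2.7.10a, featureCounts 2.0.3, Trim Galore 0.6.10, SAMtools 1.17, FastQC 0.11.9 and MultiQC 1.13; the annotation release and strand setting are not given in the sources used here. All libraries carry the same batch label.

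Counts were fitted in edgeR 4.0.16 (R 4.3.3) by the quasi-likelihood F test with 7 group means, filterByExpr, TMM factors and Benjamini-Hochberg adjustment over 15225 genes, at an adjusted p under 0.05. The fit left 14 residual degrees of freedom. Log2 CPM used a prior count of 2. An exact permutation test of 3 against 3 libraries cannot go below p = 0.1 (two-sided), so none was used. The p-values set a difference between groups against the spread between libraries of a group. The labels do not state that each library was a separate animal, so what that spread stands for is not known. The scripts were tested on simulated data.

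The members and lists were chosen with earlier results of these data known. The named genes are the 10 members and at most 2 of the 5 genes closest to Atf3 by Pearson's r. Lists of further immediate early genes and of cell type markers were written as symbols and were not analysed here, since no table used pairs rat Ensembl identifiers with symbols; the labelled tissue was therefore not checked against markers, nor were other genes of the pathway counted. Alternatives were DESeq2 1.42.0, other scalings, filters, thresholds and sets of libraries, a block for the replicate number, and fits that each lacked 1 library; leaving out libraries of a group outside the contrast was added once the data had been seen. The labels do not say that the replicate numbers pair the samples. The series text counts 18 libraries and the table holds 21.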

Additional observations from a re-analysis of the deposited data

How the results depend on the processing

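Counts of members called are followed by the share of all tested genes called in the same analysis. At 8 weeks the 2 members (8.41%) became 1, Junb (2.24%), when only the groups compared were fitted, and 3 with library size only (20.3%), without the 0-week controls (16.3%) and with the replicate block (11.7%). They ran from 0 to 3 as single libraries were left out, while the share ran from 0.207% to 16.7%. At 16 weeks the 0 members (5.62%) became 2 with DESeq2, Junb and Btg2 (11.9%), 1 with library size only, Junb (5.06%), 2 with only the groups compared, Egr3 and Btg2 (14.6%), 2 without the 0-week controls, Junb and Btg2 (13.8%), and 3 at an unadjusted p under 0.05 with a log2 difference of 0.5 or more in size (15.0%). They ran from 0 to 2 as single libraries were left out, while the share ran from 0.103% to 11.2%; the 2 came without replicate 2 of the 0-week controls, a fit added once the data had been seen. The cause was not tested. The unadjusted p with that size limit also gave 3 members for the change in the SCI difference between 8 and 2 weeks (6.37%). It gave 4 between 16 and 8 weeks (4.72%), 4 for controls at 8 against 2 weeks (9.78%) and 3 for controls at 16 against 8 weeks (4.91%). Without the size limit the member counts of these 4 comparisons were the same (8.59%, 6.63%, 18.9% and 9.50%). At the adjusted threshold each was 0 by edgeR, by DESeq2 and in the fits that lacked 1 library. The median difference of the members at 8 weeks ran from -1.08 without SCI replicate 2 to 0.45 without control replicate 1. Sign was kept in all 29 alternatives (21 fits without 1 library, 6 of which lacked a library compared, and 8 other settings) by 5 members at 2 weeks, 3 at 8 weeks and 7 at 16 weeks.

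Over all genes DESeq2 called 1960 at 8 weeks against 1281 by edgeR, and 1675 against 855 at 16 weeks. With the replicate number as a block edgeR called 1783 genes and 3 members at 8 weeks, 1307 and 0 at 16 weeks, and 0 and 0 at 2 weeks. Of 9 same-numbered pairs of SCI and control libraries 3 had a correlation over 0.1 (range -0.14 to 0.13) and 5 were closest to their own number. With so few pairs this check cannot exclude a pairing or batch behind the numbers. Depth limits Egr2 and Egr3, with as few as 9 and 3 reads in a library. The lists of further immediate early genes and cell type markers were not run.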
